A study of Homo sapiens with 2 samples.

Results

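The genes described here are 32 genes of protein folding in the endoplasmic reticulum (ER) and of the unfolded protein response, given as a list of symbols, out of 36601 genes listed. They fall into 15 chaperones and folding enzymes, 7 genes of ER-associated degradation (ERAD), 5 stress sensors and transcription factors, 2 genes of the CHOP branch and 3 genes of the translocon. They were read in single cells of HT1080, an established human fibrosarcoma line labelled wildtype. Cells were grown as spheroids of 2000 cells, about 50 spheroids to a sample, inside 500 µl of collagen, and were left to invade for 72 h. The 4B4 sample was kept in medium with 2 µg/ml of 4B4, an antibody that inhibits the β1 integrin, and the control sample was grown without it. Each group was 1 droplet library (10x Genomics) of polyadenylated RNA, so the differences below have no replicate to check them against. An effect of the antibody and a difference between 2 libraries cannot be told apart. The labels name no isotype antibody for the control.

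Proteins that enter the secretory pathway fold inside the ER with the help of chaperones, lectins and disulfide isomerases, and those that fail are drawn back to the cytosol and degraded. When unfolded protein builds up, IRE1 (the product of ERN1), PERK (EIF2AK3) and ATF6 signal to the nucleus: IRE1 splices XBP1 mRNA, PERK slows translation and favours ATF4 and CHOP, and ATF6 is cut to release a transcription factor. Cells that secrete much matrix, as fibroblast-like cells do, carry a heavy folding load. The sensors act through their proteins, and counts per gene do not separate spliced from unspliced XBP1 mRNA, so the values below are mRNA levels and not pathway activity.

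The promoters of several of these genes hold the elements through which ATF6 and XBP1 are known to act, and the sites are shown because they tell which members carry the classical sequence. Windows of 250 bases before to 50 after annotated starts came from RefSeq on GRCh38.p14, and 29 of the 32 genes had at least 1 window, all but PDIA3, DERL1 and DERL3. Both strands were searched for the ER stress element (CCAAT, any 9 bases, CCACG), its second form (ATTGG, any base, CCACG) and the unfolded protein response element (TGACGTGG). Capitals mark the fixed letters of each motif, and each site is written 5′ to 3′ on the strand given.
HSPA5, ER stress element, chr9:125241391-125241409, minus strand: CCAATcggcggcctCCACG
HSP90B1, ER stress element, chr12:103930216-103930234, plus strand: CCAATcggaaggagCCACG
HSP90B1, ER stress element, chr12:103930321-103930339, minus strand: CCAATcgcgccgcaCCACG
CALR, ER stress element, chr19:12938384-12938402, minus strand: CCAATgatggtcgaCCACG
CANX, ER stress element, chr5:179698778-179698796, plus strand: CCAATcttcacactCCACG
PDIA6, ER stress element, chr2:10812853-10812871, minus strand: CCAATgagccgcagCCACG
CRELD2, ER stress element, chr22:49918554-49918572, minus strand: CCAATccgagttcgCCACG
XBP1, ER stress element, chr22:28800603-28800621, minus strand: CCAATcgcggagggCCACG
HERPUD1, second form, chr16:56932025-56932035, plus strand: ATTGGgCCACG
SDF2L1, second form, chr22:21642114-21642124, minus strand: ATTGGtCCACG
HYOU1, second form, chr11:119057274-119057284, plus strand: ATTGGaCCACG
HYOU1, second form, chr11:119057380-119057390, plus strand: ATTGGaCCACG
HYOU1, unfolded protein response element, chr11:119057386-119057393, minus strand: TGACGTGG

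The ER stress element was found in 27 of 35116 windows of the whole table (0.0769%). It was in 9 of the 38 windows of members, which belong to 7 of the 29 members. The second form was in 19 windows (0.0541%), and in 3 of the 38 windows of members, from 3 members. TGACGTGG was in 256 windows (0.729%), and in 1 of the 38 windows of members, that of HYOU1. In HYOU1 the TGACGTGG overlaps a site of the second form on the other strand. The site of HSPA5 ends 48 bases before the annotated start and that of XBP1 34 bases before it, while that of CALR lies 207 bases away. A match describes letters only, and no binding was measured here.

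Before the members are compared, the libraries themselves differed. After the cell filter (at least 1000 detected genes and at most 20% mitochondrial UMIs; a UMI counts 1 captured RNA molecule) 1385 of 1759 barcodes were kept in the 4B4 library and 3402 of 3642 in the control library, with 116451080 and 127218114 UMIs. The median cell held 68556 UMIs in the 4B4 library and 32914 in the control library, a ratio of 2.08, and median mitochondrial shares were 7.63% and 9.16%. Cells called G1 made up 87.4% of the 4B4 cells and 66.6% of the control cells. The libraries shared 2 barcodes, and no doublet caller was run. Mesenchymal genes fit the cell line label, with VIM at 1392 UMIs per 1000000 (UPM) in the 4B4 library and 1830 in the control library. KRT5 and HBA2 had no UMI in either library, and CDH1, PTPRC, CD3E and KDR were each under 1 UPM in both. Of the other cell types' markers 3 were measured: CLDN4 at 13.8 UPM in the 4B4 library and 11.2 in the control library, CD68 at 38.4 and 26.5, and PECAM1 at 45.8 and 30.3, the last called higher by 1.5-fold. Their part in the members' levels was not tested.

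No member differed 1.5-fold. Levels are UMIs summed over kept cells per 1000000 of the library total, and genes under 5 UPM in both libraries were taken as not measured. A gene was called when its ratio passed the fold and its counting interval lay on the same side of 1. Of the 32 members 31 were measured, and 0 were at least 1.5-fold higher in the 4B4 library, against 2.10% of the 11359 genes measured at the same floor. Likewise 0 were at least 1.5-fold lower, against 5.82% of all measured genes. By the smaller margin of 25% higher 4 members were called (DNAJB9, HYOU1, EDEM1 and ERN1), and by 20% lower 1 was called (SDF2L1), against 8.94% and 13.3% of all measured genes. Most members leaned the same way by a small amount. The log2 ratio, 4B4 over control, was above 0 for 26 of 31 members, against 48.1% of all measured genes, and its median was 0.10 for the members and -0.01 for all genes. That count of 26 was between 21 and 28 under the 14 other settings tried, and was 22 when mitochondrial genes were left out of the library total. Summed, the members made up 3515 UPM in the 4B4 library and 3330 UPM in the control library, a sum that abundant genes carry. The counting intervals are narrow at this depth and cover counting error only.

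**Figure D1:**
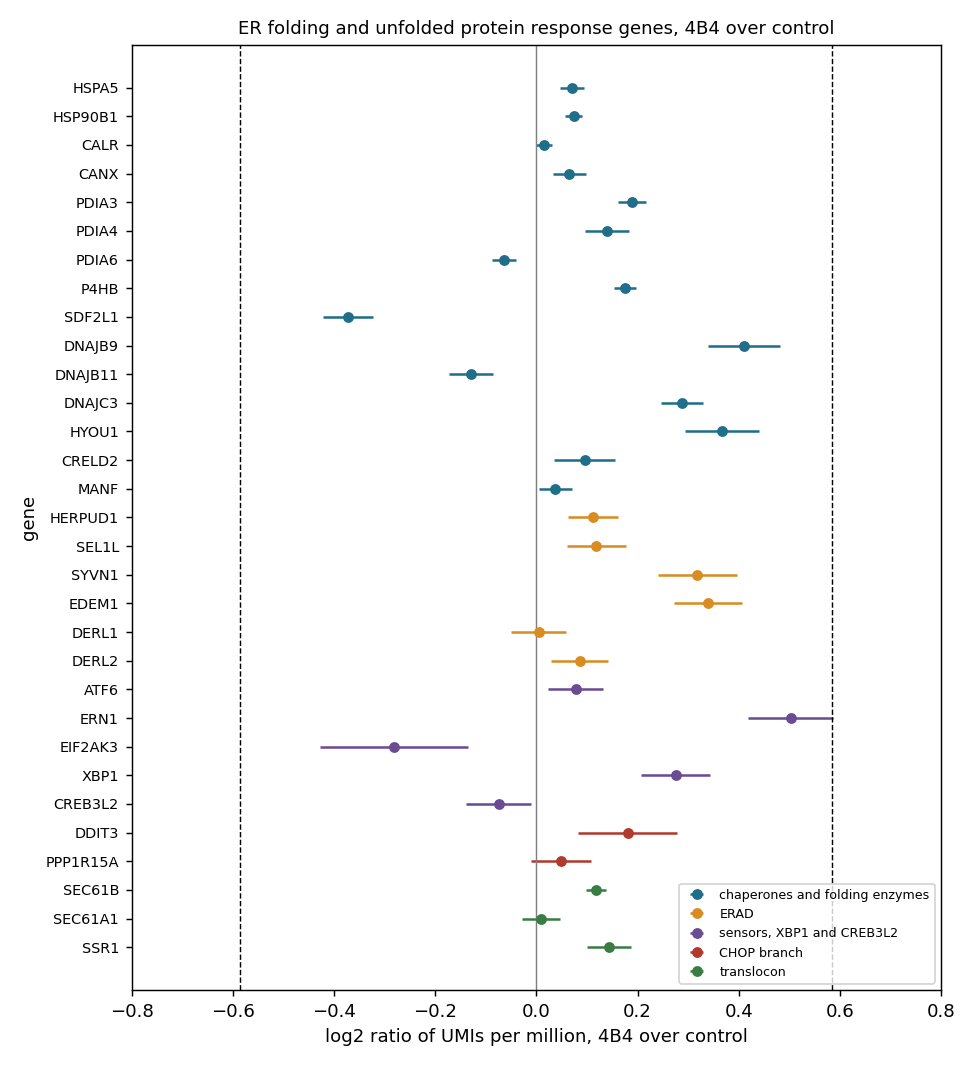
Log2 ratio of UPM, 4B4 over control, for the 31 measured genes by role; points are ratios, bars the 95% counting intervals, and dashed lines a 1.5-fold difference. All points lie between the dashed lines, from SDF2L1 at -0.37 to ERN1 at 0.50.

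Summed over all kept cells, the most abundant chaperones differed little, and by more within ranges of depth. HSPA5 (BiP, the central Hsp70 chaperone of the ER lumen; chr9:125234853-125241330) was at 254 UPM in the 4B4 library and 242 in the control library, a log2 ratio of 0.07 (95% counting interval 0.05 to 0.09). HSP90B1 (GRP94, the Hsp90 of the ER) was at 455 and 433 UPM in the 4B4 and control libraries, with a log2 ratio of 0.07 as well. CALR and CANX are the lectin chaperones that hold newly glycosylated proteins. CALR had 522 UPM in the 4B4 library and 517 in the control library, and CANX 128 and 122. Their log2 ratios were 0.02 and 0.07, and the counting interval of CALR reached 0. Among cells of 20000 to 60000 UMIs the log2 ratio was 0.27 for HSPA5 and 0.27 for HSP90B1. Above 60000 UMIs it was 0.24 for HSPA5 and 0.21 for HSP90B1. For the summed folding genes it was 0.22 and 0.16 in these ranges, and -0.21 under 20000 UMIs. The part of depth in these ratios was not tested.

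The disulfide isomerases did not all lean the same way. P4HB (PDI, also the β subunit of the collagen prolyl hydroxylase) had 299 UPM in the 4B4 library and 265 in the control library, log2 ratio 0.18. PDIA3 (ERp57, which works with the lectin chaperones) had 178 UPM in the 4B4 library and 156 in the control library, log2 ratio 0.19. PDIA4 stood at 75.8 UPM in the 4B4 library and 68.8 in the control library. PDIA6 was the exception, at 227 UPM in the 4B4 library and 238 in the control library, log2 ratio -0.06. Its sign turned to 0.15 among cells of 20000 to 60000 UMIs.

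The cochaperones held the largest ratios of the folding genes, in both directions. DNAJB9 (ERdj4, a J protein of BiP that also binds IRE1; chr7:108569568-108574850) had 29.8 UPM in the 4B4 library and 22.4 in the control library, a ratio of 1.33, or 0.41 on the log2 scale (0.34 to 0.48). DNAJC3 (p58IPK, a J protein known to inhibit PERK) had 85.0 UPM in the 4B4 library and 69.6 in the control library, a log2 ratio of 0.29 (0.25 to 0.33). HYOU1 (GRP170, a nucleotide exchange factor of BiP; chr11:119044189-119057202) had 28.1 and 21.8 UPM in the 4B4 and control libraries, a log2 ratio of 0.37 (0.29 to 0.44). These 3 genes kept their sign under all 14 other settings. DNAJB11 (ERdj3, the J protein with which SDF2L1 forms a complex) was at 66.8 UPM in the 4B4 library and 73.0 in the control library, log2 ratio -0.13. SDF2L1 itself (chr22:21642261-21644298) was at 47.3 UPM in the 4B4 library and 61.3 in the control library, a ratio of 0.772, or -0.37 on the log2 scale (-0.42 to -0.32). Over all kept cells both partners of this complex were thus on the lower side. For SDF2L1 the ratio differed between called phases of the cell cycle, as given further on. For DNAJB11 it was -0.01 among cells with at least 5% mitochondrial UMIs and turned to 0.13 (0.03 to 0.22) among cells of 10 to 20%. CRELD2 and MANF, secreted factors that ER stress induces, had log2 ratios of 0.10 and 0.04. CRELD2 stood at 38.2 UPM in the 4B4 library and 35.8 in the control library, and MANF at 130 and 126.

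All 6 measured ERAD genes had a log2 ratio above 0, with a median of 0.12 and none at 1.5-fold. EDEM1 (a lectin that passes misfolded glycoproteins to degradation; chr3:5187646-5219957) had 33.1 UPM in the 4B4 library and 26.2 in the control library, a log2 ratio of 0.34 (0.27 to 0.41). SYVN1 (HRD1, the membrane ubiquitin ligase of the pathway) had 24.0 UPM in the 4B4 library and 19.2 in the control library, log2 ratio 0.32. SEL1L, the adaptor of SYVN1, differed less, with 40.6 UPM in the 4B4 library and 37.4 in the control library. HERPUD1, a ubiquitin-like protein that organises the same complex, had 55.9 and 51.8 UPM in the 4B4 and control libraries. The derlins are membrane proteins of the exit channel. DERL1 stood at 44.8 UPM in the 4B4 library and 44.7 in the control library, and DERL2 at 43.2 and 40.7. DERL1 had a log2 ratio of 0.00 with a counting interval of -0.05 to 0.06. DERL3 had no UMI in either library. A count of 0 allows up to 0.0258 UPM in the 4B4 library and 0.0236 UPM in the control library (3 counts over each library).

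Among the sensors ERN1 and EIF2AK3 leaned in opposite directions. ERN1 (IRE1α; chr17:64039142-64130819) had 22.9 UPM in the 4B4 library and 16.2 in the control library, a ratio of 1.42, or 0.50 on the log2 scale (0.42 to 0.59), and was the member with the largest ratio. EIF2AK3 (PERK; chr2:88556741-88627576) had 5.76 UPM in the 4B4 library and 7.00 in the control library, a log2 ratio of -0.28 (-0.43 to -0.14). The sign of EIF2AK3 did not hold throughout: its log2 ratio was 0.04 when each cell weighed the same. ATF6 differed less than either, with 46.1 UPM in the 4B4 library and 43.7 in the control library, log2 ratio 0.08. XBP1, the transcription factor whose mRNA IRE1 splices (chr22:28794555-28800597), had 32.3 UPM in the 4B4 library and 26.7 in the control library, a log2 ratio of 0.27 (0.21 to 0.34). CREB3L2 (BBF2H7, an ATF6-like factor known in mice to drive the secretory load of cartilage cells) had 32.2 UPM in the 4B4 library and 33.9 in the control library, log2 ratio -0.07. ERN1 passed 1.5-fold under 4 settings and reached a log2 ratio of 1.12 when each cell weighed the same, which gives more weight to shallow cells.

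The CHOP branch lay close to no difference. DDIT3 (CHOP, the transcription factor of prolonged ER stress; chr12:57516588-57521737) had 15.1 UPM in the 4B4 library and 13.3 in the control library, log2 ratio 0.18 (0.08 to 0.28). PPP1R15A (GADD34, the phosphatase subunit that restores translation; chr19:48872392-48876057) had 39.3 UPM in the 4B4 library and 38.0 in the control library, log2 ratio 0.05, with a counting interval that spanned 0. Within each range of UMIs per cell DDIT3 was higher in the 4B4 cells. Its log2 ratio was 1.08 (0.53 to 1.58) under 20000 UMIs and 0.31 (0.14 to 0.48) at 20000 to 60000. Above 60000 UMIs it was 0.42 (0.25 to 0.59). The sign of DDIT3 did not hold among cells with at least 5% mitochondrial UMIs, where its log2 ratio was -0.13. PPP1R15A reached 0.55 when each cell weighed the same.

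In the translocon, the channel through which new chains enter the ER, all 3 genes stayed within a log2 ratio of 0.15. SEC61B (the β subunit) had 348 UPM in the 4B4 library and 321 in the control library. SEC61A1, the pore itself, was at 94.2 UPM in the 4B4 library and 93.6 in the control library. SSR1 (TRAPα, of the complex that assists the channel) stood at 72.1 UPM in the 4B4 library and 65.3 in the control library. By branch, summed levels in the 4B4 and control libraries were 2565 and 2452 UPM for folding, 242 and 220 for ERAD, 139 and 127 for the sensors and factors, 54.4 and 51.3 for the CHOP branch, and 515 and 480 for the translocon. Members with an ER stress element in a window had a median log2 ratio of 0.07 (n = 7) and those with a window but no such element 0.12 (n = 22).

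Shares of cells with a UMI were compared after each cell had been thinned to 17000 UMIs, since deeper cells show more genes. Thinning kept 1311 cells of the 4B4 library and 3099 of the control library and left out 74 and 303 shallower cells. Abundant members were seen in nearly every cell: HSP90B1 in 97.9% of 4B4 cells and 98.8% of control cells. XBP1 had the widest gap. It was seen in 41.1% of 4B4 cells (95% Clopper-Pearson interval 38.4 to 43.8) and 33.6% of control cells (31.9 to 35.3). DNAJC3 was seen in 70.2% of 4B4 cells and 63.8% of control cells, and SYVN1 in 34.2% and 27.9%. ERN1 was seen in 26.2% of 4B4 cells and 21.4% of control cells. SDF2L1 ran the other way, in 49.5% of 4B4 cells and 54.3% of control cells. DDIT3, at 19.8% of 4B4 cells and 18.5% of control cells, had overlapping intervals. Without thinning the depth gap set the shares: SDF2L1 was then seen in 82.3% of 4B4 cells and 70.0% of control cells, and ERN1 in 63.2% and 37.2%. A single cell line offers no cell type that should lack these genes, so the share that free RNA in the droplets would give was not measured.

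**Figure D2:**
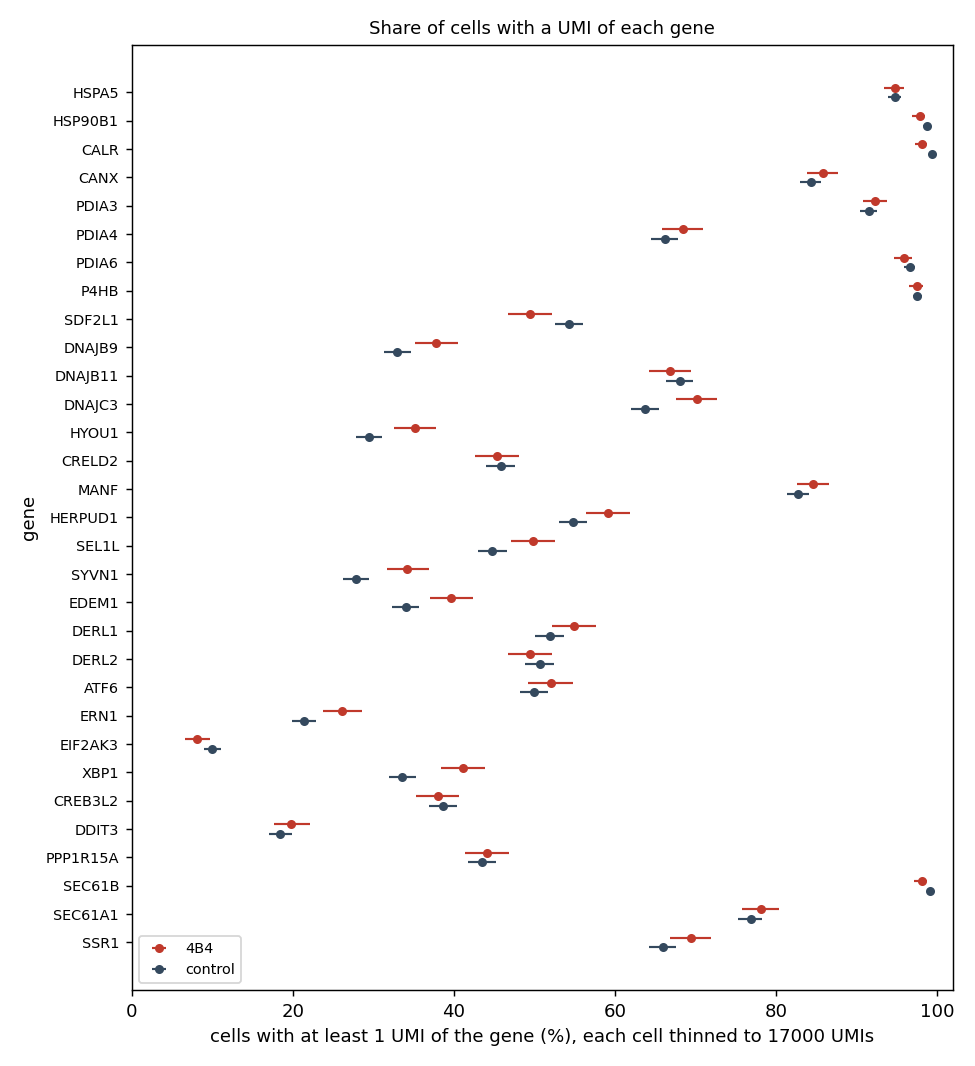
Share of cells with at least 1 UMI of each gene after thinning to one depth, with 4B4 above control for each gene; bars are 95% Clopper-Pearson intervals. Genes seen in more 4B4 cells, with intervals that do not meet, are XBP1, SYVN1, HYOU1, DNAJC3, EDEM1, ERN1, DNAJB9 and SEL1L. SDF2L1 and CALR are seen in fewer. The share of all genes with such intervals was not counted, so this list is a description only.

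Expression was spread over many cells for most members. DDIT3 was the most concentrated by the share of its UMIs in the 1% of cells with the most, 14.9% in the 4B4 library and 16.1% in the control library, and EIF2AK3 came next with 11.9% and 14.6%. The median over all measured genes was 6.70% in the 4B4 library and 7.68% in the control library. PDIA6 was among the most even, at 3.20% in the 4B4 library and 3.76% in the control library. Sparse genes give higher shares on this measure. The summed folding genes varied more from cell to cell than counting alone, which gives a variance over the mean near 1. Their median was 46 UMIs per thinned 4B4 cell and 41 per control cell, the variance over the mean was 6.29 and 4.17, and the range was 0 to 157 UMIs in 4B4 cells and 8 to 126 in control cells. For the ERAD sum the variance over the mean was close to 1 in both libraries, at 1.23 in the 4B4 library.

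SDF2L1, DNAJB9 and DDIT3 differed between the called phases of the cell cycle. Phases were called from S and G2M genes, and in each library taken alone the levels of members in G2M cells were set against G1 cells. In the 4B4 library 1 member, SDF2L1, was at least 1.5-fold higher in G2M than in G1 cells, against 12.9% of all genes, and 1, DNAJB9, was lower, against 2.60%. In the control library the members on each side were again SDF2L1, against 12.3% of all genes higher, and DNAJB9, against 6.46% lower. SDF2L1 stood at 43.4 UPM in G1, 81.0 in S and 68.3 in G2M cells of the 4B4 library, and at 43.6, 84.2 and 93.8 in those of the control library. Within G1 the libraries therefore lay together, with a log2 ratio of -0.01 (-0.07 to 0.06), and within G2M the 4B4 cells were lower, at -0.46 (-0.58 to -0.34). The 4B4 library also had fewer cells in S and G2M: 5.95% and 6.64% of 4B4 cells, against 12.1% and 21.3% of control cells. With the phases weighing the same the log2 ratio of SDF2L1 was -0.20. The part of the phases in the lower SDF2L1 sum was not tested. DNAJB9 was highest in G1 cells. It was at 30.7 UPM in G1, 25.7 in S and 19.9 in G2M cells of the 4B4 library, and at 26.0, 20.4 and 14.0 in those of the control library. In each of the 3 phases DNAJB9 was higher in the 4B4 cells, with log2 ratios of 0.24, 0.34 and 0.51 and counting intervals above 0. DDIT3 was lowest in S cells, with 15.5 UPM in G1, 9.94 in S and 11.3 in G2M cells of the 4B4 library and 14.8, 6.96 and 10.4 in those of the control library. In the 4B4 library its intervals in S (7.59 to 12.8) and G2M cells (9.29 to 13.6) overlapped, so these phases were not separated there. HSPA5 and XBP1 differed less between the phases than the genes above. HSPA5 was at 255, 258 and 240 UPM in G1, S and G2M cells of the 4B4 library. In those of the control library HSPA5 was at 249, 238 and 221 UPM, with a G2M over G1 log2 ratio of -0.17 (-0.21 to -0.13). For XBP1 the S over G1 log2 ratio in the control library was 0.21 (0.06 to 0.36). XBP1 was at 31.8, 33.1 and 35.1 UPM in G1, S and G2M cells of the 4B4 library and at 25.5, 29.5 and 26.9 in those of the control library.

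**Figure D3:**
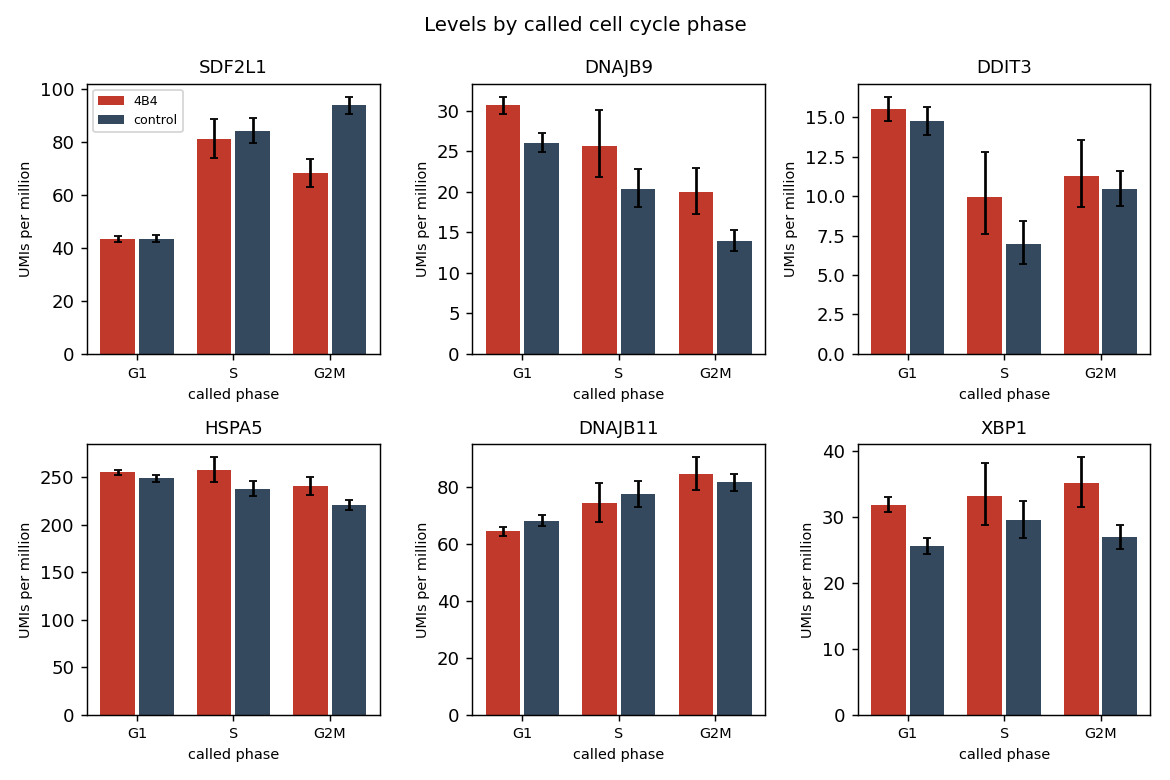
UPM of 6 genes in cells called G1, S and G2M, 4B4 left of control in each pair, with exact 95% Poisson intervals. SDF2L1 is lowest in G1, at 43.4 UPM in the 4B4 library and 43.6 in the control library, and DNAJB9 and DDIT3 are highest in G1.

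Shallow cells of the 4B4 library had a pattern of their own. Cells under 20000 UMIs numbered 84 in the 4B4 library, with a median of 6864 UMIs and 0.582% of the library's UMIs, and 533 in the control library, with a median of 16484. Set against cells of 20000 to 60000 UMIs of the same library, 7 members were at least 1.5-fold higher in the 4B4 library (DNAJB9, HERPUD1, ERN1, EIF2AK3, CREB3L2, DDIT3 and PPP1R15A), against 37.0% of all genes. Another 7 were lower (CALR, PDIA6, SDF2L1, MANF, DERL1, DERL2 and SEC61B), against 10.4%. The median log2 ratio of this comparison was 0.50 for all genes and -0.14 for the members, so a call on the higher side was common there. Both genes of the CHOP branch and 3 of the 5 sensors and factors were among those higher. Among those lower were 4 folding genes, both measured derlins and SEC61B. In the control library 1 member was higher, DDIT3, against 2.55% of all genes, and 0 were lower, against 6.16%. PPP1R15A was at 209 UPM (176 to 247) in the shallow 4B4 cells and 44.7 in the shallow control cells. Between 20000 and 60000 UMIs it was at 39.9 UPM in the 4B4 cells and 37.4 in the control cells. ERN1 was at 142 UPM (115 to 173) in the shallow 4B4 cells and 17.4 in the shallow control cells, on 96 and 142 UMIs. It stayed higher in 4B4 cells at 20000 to 60000 UMIs, with 24.6 UPM against 15.7 in control cells, and above 60000 UMIs, with 21.7 against 17.2 in control cells. SEC61B was at 158 UPM in the shallow 4B4 cells and 345 in the shallow control cells, and CALR at 335 and 562. MALAT1, a nuclear RNA that is no member, moved with this: 50561 UPM in the shallow 4B4 cells and 14585 in the shallow control cells. Its part in these levels was not tested. With cells under 20000 UMIs left out, a choice made after seeing these values, the log2 ratio of ERN1 was 0.47 and that of PPP1R15A 0.03.

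Within the 4B4 library the summed folding genes differed more between ranges of mitochondrial share than the sums of both libraries differed from each other. Cells with under 5% mitochondrial UMIs held 29.6% of the UMIs of the 4B4 library and 8.87% of those of the control library, and their median mitochondrial share was 2.07% and 3.81%. Against cells of 5 to 10% of the same library, 8 members were at least 1.5-fold lower in them in the 4B4 library (HSPA5, HSP90B1, CANX, DNAJC3, SEL1L, ATF6, EIF2AK3 and CREB3L2), as were 41.4% of all genes. DDIT3 was the 1 member higher, against 5.60%. The median log2 ratio of this comparison was -0.45 for the members and -0.42 for all genes, so the shift was not particular to the members. In the control library 2 members were lower (SEL1L and EIF2AK3), against 18.0% of all genes, and 0 were higher, against 3.08%. HSP90B1 was at 268 UPM under 5% and 538 UPM at 5 to 10% in the 4B4 library, and at 345 and 442 UPM in the control library. The folding genes summed to 1967 UPM under 5%, 2844 at 5 to 10% and 2726 at 10 to 20% in 4B4 cells, and to 2280, 2527 and 2373 UPM in control cells. The order of the libraries thus changed with the range: under 5% the 4B4 cells were lower, and in both other ranges they were higher. MALAT1 moved with these ranges, at 4422 UPM under 5% and 15494 UPM at 5 to 10% in 4B4 cells, and at 4381 and 11356 UPM in control cells, and its part in the members' levels was not tested. DNAJC3 behaved as the sum did, with a log2 ratio of -0.16 under 5% and 0.49 at 5 to 10%. SEC61B ran the opposite way, at 430 UPM under 5% and 323 UPM at 5 to 10% in 4B4 cells, and 357 and 323 in control cells. Among cells of 20000 to 60000 UMIs the folding sum under 5% was 2547 UPM in the 4B4 library (47 cells) and 2480 UPM in the control library (168 cells), and at 5 to 10% it was 3078 and 2578 UPM. In the under 5% cells of that depth range HSP90B1 was still lower in the 4B4 library, at 303 UPM against 385 UPM in the control library, and HSPA5 stood at 252 UPM in the 4B4 library and 255 in the control library. Depth was matched only as a range, in which the median cell held 43835 UMIs in the 4B4 library and 33702 in the control library. With cells under 5% left out, also a choice made after seeing these values, the median log2 ratio of the 31 members was 0.21, beside 0.06 for all genes.

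**Figure D4:**
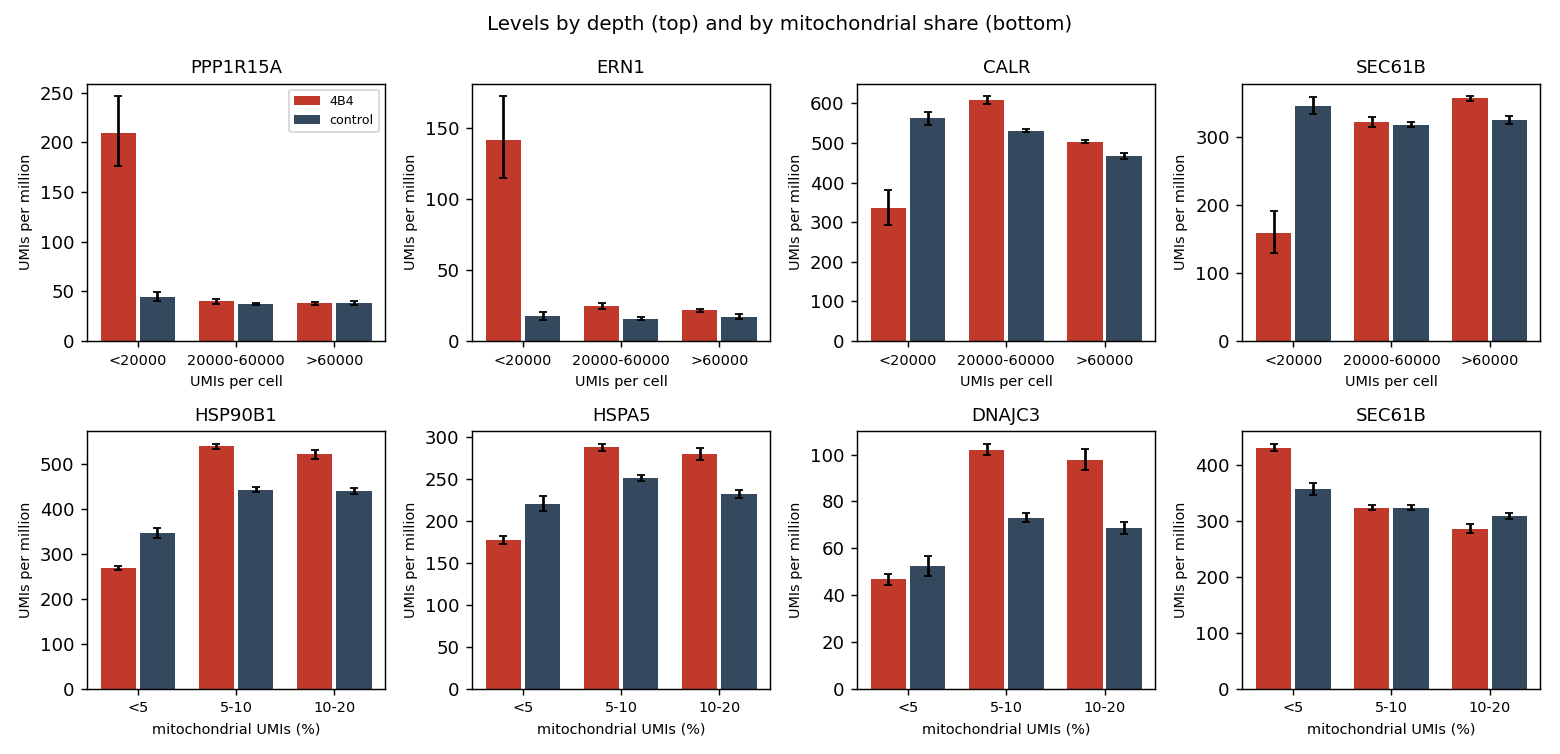
UPM by UMIs per cell (top) and by mitochondrial share (bottom), 4B4 left of control in each pair, with exact 95% Poisson intervals. PPP1R15A and ERN1 stand at 209 and 142 UPM in 4B4 cells under 20000 UMIs, and HSP90B1 and HSPA5 are lowest in cells with under 5% mitochondrial UMIs.

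Across thinned cells of each library the abundant chaperones moved together. Pearson's r of log1p counts between HSPA5 and CALR was 0.455 over 1311 4B4 cells and 0.313 over 3099 control cells. For HSP90B1 and CALR it was 0.455 and 0.320, and for HSPA5 and HSP90B1 0.423 and 0.292. The median over the 105 pairs of folding genes was 0.112 in 4B4 cells and 0.059 in control cells. Pairs within ERAD had a median of 0.003 in 4B4 cells and 0.007 in control cells, and pairs of sensors and factors 0.034 and 0.021. Counts of these less abundant genes are sparse, so such low values are no finding. DDIT3 and PPP1R15A had an r of 0.045 in 4B4 cells and 0.071 in control cells. Cells of a library share its preparation and here 1 depth, and the mitochondrial share moves with these genes. Within cells of 5 to 10% mitochondrial UMIs the r of HSPA5 and CALR was 0.329 in 778 4B4 cells and 0.252 in 1742 control cells, while that of HSP90B1 and CALR was 0.279 and 0.307, the other way round.

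**Figure D5:**
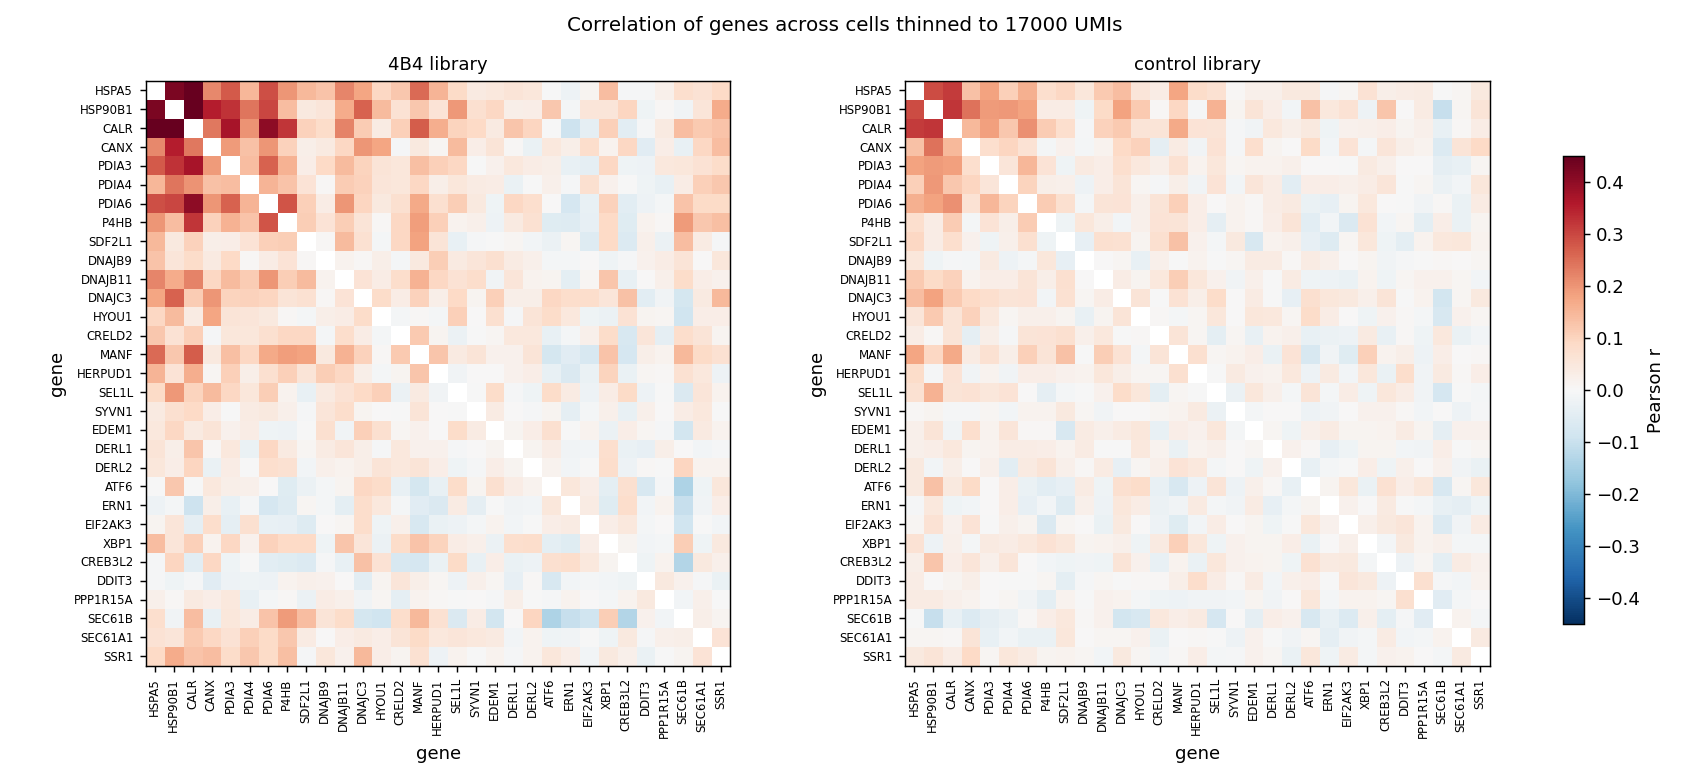
Pearson correlation of log1p thinned counts for each pair of the 31 measured genes, 4B4 library left, control library right; the colour scale runs from blue (negative) to red (positive) and the diagonal is blank. The red block at the upper left holds HSPA5, HSP90B1, CALR, CANX and the disulfide isomerases, and it is paler in the control library over all thinned cells.

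Outside the members, the 10 genes most like the summed folding genes, by the smaller of both libraries' r over 6174 genes of at least 20 UPM, were PPIB, HSP90AB1, ITGB1, LMAN1, CALU, NCL, LDHA, ITM2B, SPCS2 and EIF3A. PPIB, the prolyl isomerase of the ER lumen, led with an r of 0.610 in 4B4 cells and 0.374 in control cells. Within cells of 5 to 10% mitochondrial UMIs the r of PPIB was 0.337 in 778 4B4 cells and 0.314 in 1742 control cells. ITGB1, which encodes the β1 integrin that 4B4 binds, had an r of 0.423 in 4B4 cells and 0.246 in control cells, over thinned cells of any mitochondrial share. Its level was 780 UPM in the 4B4 library and 642 in the control library. The median r over all those genes was 0.028 in 4B4 cells and 0.022 in control cells.

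Other genes of the pathway were taken from lists by function, and among these a few differed more than any member. Of 21 other folding and oxidation genes 2 passed 1.5-fold, both on the higher side. Among all measured genes 2.10% were higher and 5.82% lower, and these shares stand beside the calls of every list here. FKBP2, a prolyl isomerase of the ER lumen, had 33.8 UPM in the 4B4 library and 15.0 in the control library, log2 ratio 1.17, and 1.08 among G1 cells. TXNDC5, a disulfide isomerase, had 158 UPM in the 4B4 library and 101 in the control library, log2 ratio 0.65, which was 0.58 and short of 1.5-fold among G1 cells. The median of the list was 0.07. Of the 21 other ERAD genes none was called, and the largest ratios were those of SELENOS (log2 0.47) and RNF5 (0.46), a selenoprotein and a ubiquitin ligase of the ER membrane. Of 26 measured genes of translocation and N-glycosylation none was called. SSR3, a partner of SSR1, had the largest difference at -0.56, and SEC61G, the third subunit of the channel, stood at 0.43. SSR3 was at -0.27 among G1 cells. The 14 other measured regulators, which include site proteases, KDEL receptors and the ligase that joins spliced XBP1 mRNA, held no call, with NUCB1 at 0.34, BCAP31 at 0.33 and that ligase, RTCB, at -0.32. Of 13 measured ATF4 and CHOP targets 2 were higher and 0 lower at 1.5-fold, beside the 2.10% and 5.82% of all measured genes. TRIB3, a pseudokinase that CHOP and ATF4 induce, had 36.9 UPM in the 4B4 library and 21.6 in the control library, log2 ratio 0.77, and 0.57, short of 1.5-fold, among cells of 20000 to 60000 UMIs. CEBPB, a partner of CHOP, had 254 UPM in the 4B4 library and 164 in the control library, log2 ratio 0.63, and 0.49, short of 1.5-fold, among G1 cells. The list as a whole did not lean that way: 6 of 13 had a ratio above 0, and its median was -0.01. By the smaller margin 2 were higher and 3 lower, against 8.94% and 13.3% of all measured genes. Those lower were ATF3 at -0.58, just inside 1.5-fold, GADD45A at -0.52 and SESN2 at -0.47, named with ATF4 after their values were seen. ATF4 itself had 49.9 UPM in the 4B4 library and 57.0 in the control library. The 20 genes of ER to Golgi export held no call, from MCFD2 at -0.26 to MIA3 at 0.20.

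Genes that tissue digestion and heat are known to induce were set beside the members, since the gels were digested with enzymes before capture. Of the 11 measured, 0 were called in either direction, against 2.10% of all measured genes higher and 5.82% lower. Their median log2 ratio was 0.05. The largest differences were FOSB at -0.47 and HSPA1B at 0.34, and the counts of HSPA1B are uncertain because HSPA1A is nearly identical. Together they summed to 2300 UPM in the 4B4 library and 2240 UPM in the control library. Their part in the members' levels was not tested.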

How the data were processed

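Per the file headers, the authors made the deposited UMI counts per gene and barcode with Cell Ranger 7.1.0. GRCh38 and Seurat 5.0.1 are named in the submitters' processing notes. The annotation release is not given in the sources used here. Kept cells had 1000 detected genes or more and no more than 20% of UMIs from mitochondrial genes, and doublets were not called. Counts were summed per library and divided by its total (UPM), with exact Poisson intervals for levels and Clopper-Pearson intervals for ratios and shares at 95%, covering counting error only. With 1 library per group no test was run. A gene was called by size at 5 UPM or more in either library and a 1.5-fold ratio whose interval excluded 1. The ratios, their intervals and the calls by size were tested on simulated counts. Cells were thinned to 17000 UMIs, the largest multiple of 1000 that 90% of cells reach. Phases came from scanpy 1.11.5 with 43 S and 54 G2M genes (Seurat 5.3.0 list) and TMM factors from edgeR 4.0.16. Gene positions are from GENCODE release 29, promoters from RefSeq. All members are named, and in each pathway list the called genes, or otherwise the largest ratios. The members and lists were chosen with earlier results of these data known.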

Additional observations from a re-analysis of the deposited data

How the results depend on the processing

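Each ratio was recomputed under 14 other settings. Of the 31 measured members 20 kept the sign of their log2 ratio under all 14, among them all 5 that differed by the smaller margin. The count of members at least 1.5-fold higher was 0 and became 1, ERN1 each time, with a stricter filter (2000 detected genes or more, no more than 10% of UMIs mitochondrial), with each cell weighing the same, with cells of 20000 to 60000 UMIs and with cells of at least 5% mitochondrial UMIs. The share of all genes called under these settings is not given here, so that 1 call has no background beside it. By the margin of 25% higher or 20% lower, 4 members were higher and 1 was lower, against 8.94% and 13.3% of all measured genes. With a floor of 20 UPM, with no floor or at 2-fold both counts were 0. The median log2 ratio of the members, 0.10, was 0.17 with cells of 20000 to 60000 UMIs and 0.21 with cells of at least 5% mitochondrial UMIs. It was lower, at 0.06, with the stricter filter and with mitochondrial genes left out of the library total. The cause of these shifts was not tested. SDF2L1 lay between -0.51 with the stricter filter and -0.01 among G1 cells, and ERN1 between 0.35 with the phases weighing the same and 1.12 with each cell weighing the same. The settings that left out cells under 20000 UMIs or under 5% mitochondrial UMIs were chosen after seeing the data. The median of all genes stayed between -0.05 and 0.06 under every setting. No paired analysis was possible because each group was 1 library and the labels give no replicate numbers. Counting error is small at this depth with some exceptions. These are the shallow 4B4 cells, the less abundant members in the 78 S and 87 G2M cells of the 4B4 library, and EIF2AK3, the measured member with the fewest UMIs. The spread between cultures is unknown.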
